A study of Mus musculus with 6 samples.

Results

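Corticosteroid-binding globulin and alpha-1-antitrypsin are encoded in mice by neighbouring genes of a serpin cluster on chromosome 12. The genes described here are Serpina6, which encodes the globulin, and Serpina1a, Serpina1b, Serpina1c, Serpina1d and Serpina1e, the copies that encode alpha-1-antitrypsin. They are the 6 rows, of 23337 gene rows in each table of read counts, whose names equal those symbols. They were chosen because their counts were known to differ between Prox1 mutant and control pancreas. Their differences between these groups are therefore given as descriptions without a test.

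RNA of whole embryonic pancreas was sequenced from 3 mutant and 3 control pools of the mouse strain NMRI, all dissected at E13.5, in midgestation. The mutant embryos carried the genotype written Prox1 GFPCre/D, which the submitters call nullizygous for Prox1, and the control embryos were wildtype. The labels do not explain the D allele and do not say which bases either allele lacks. Each pool combined 5 to 6 pancreata of the same genotype and gave 1 library. Pools are the replicates, and nothing in the labels says whether pools of a group shared a litter, so p-values measure the spread between these pools. In pooled tissue, fewer cells of a type and less RNA per cell cannot be told apart.

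Total counts were 16060424, 17152013 and 17633867 reads in mutant pools 1 to 3, against 16573638, 16325177 and 16954513 reads in control pools 1 to 3. Levels are given as CPM, the count unit scaled to library size, with TMM factors, and 1 CPM stood for 15.9 to 17.5 reads. Prox1 itself had 1330, 1774 and 1602 reads in the mutant pools, against 1764, 1687 and 1824 reads in the control pools. Its counts overlapped between groups and cannot check the genotype, since the missing bases are not stated. The pancreas markers Pdx1, Ptf1a, Sox9, Nkx6-1, Cpa1, Gata4 and Rbpjl were present in every pool. Xist, the RNA of the inactive X chromosome, was almost absent in mutant pool 1 and control pool 3, at 0.126 and 0.526 CPM, and lay between 2015 and 2814 CPM in the other 4 pools. Without those 2 pools the log2 fold change was -2.34 for Serpina6 and -1.72 for the summed Serpina1 copies, against -2.61 and -1.98 with all pools.

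Serpins are proteins that mostly block serine proteases by offering a bait loop, the reactive centre loop, which the protease cuts and which then traps it. Alpha-1-antitrypsin, made chiefly by hepatocytes, is the main blood inhibitor of neutrophil elastase. Corticosteroid-binding globulin has the serpin fold but inhibits no known protease. It carries glucocorticoids in blood and releases them when its loop is cut, and the liver is its main adult source.

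The 6 genes lie on the minus strand of chromosome 12 in GENCODE M21 annotation of GRCm38, the build also called mm10. Serpina6 (ENSMUSG00000060807.7) spans positions 103646630 to 103657212. Serpina1b (ENSMUSG00000071178.11) spans 103728156 to 103830373, and its annotated span encloses Serpina1d (ENSMUSG00000071177.4), at 103763594 to 103773592. Serpina1a (ENSMUSG00000066366.14) spans 103853589 to 103863562 and Serpina1c (ENSMUSG00000079015.2) spans 103894926 to 103904887. Serpina1e (ENSMUSG00000072849.10), the last copy, spans 103946931 to 103958975. The annotated transcript taken for each gene has 5 exons, 4 of them coding. Its coding length is 1239 bases in every Serpina1 copy and 1191 bases in Serpina6. For Serpina1a this is Serpina1a-202, since another of its annotated transcripts has an added coding exon. Transcript lengths, coding sequences and windows below are those of the transcripts taken.

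The Serpina1 copies are near-identical, which limits how far reads can be assigned to one of them. Their coding sequences differed at 19 of 1239 positions between Serpina1a and Serpina1c (98.47% identity), the closest pair, and at 46 positions between Serpina1b and Serpina1e (96.29% identity). The pair Serpina1d and Serpina1e also differed at 46 positions. Over all copies 86 of 1239 coding positions varied. These positions were not spread evenly, for the most variable stretch of 60 bases held 18 of them, against a median of 4 over all such stretches. That stretch is shown because it tells the copies apart. It covers coding positions 1101 to 1160, in exon 5, the part of the gene that encodes the end of the protein. The reactive centre loop is encoded near there, and the mouse copies are known to differ most in that loop. Capitals mark positions that differ among the copies, each read 5′ to 3′ along the minus strand of GRCm38.
Serpina1a, chr12:103853757-103853816: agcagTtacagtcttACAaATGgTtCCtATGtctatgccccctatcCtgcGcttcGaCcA
Serpina1b, chr12:103728324-103728383: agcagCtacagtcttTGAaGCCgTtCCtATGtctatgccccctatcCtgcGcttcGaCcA
Serpina1c, chr12:103895094-103895153: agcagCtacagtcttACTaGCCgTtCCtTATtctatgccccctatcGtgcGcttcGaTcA
Serpina1d, chr12:103763762-103763821: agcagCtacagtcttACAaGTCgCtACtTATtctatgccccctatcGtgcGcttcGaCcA
Serpina1e, chr12:103947100-103947159: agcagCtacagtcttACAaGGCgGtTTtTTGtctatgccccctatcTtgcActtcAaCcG

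How much of each transcript could be told apart was measured in the annotated transcripts of all genes. Every stretch of 75 consecutive bases of Serpina6 was found in no other gene. Of such windows, 75.8% were found only in their own gene for Serpina1e, 67.1% for Serpina1b and 62.9% for Serpina1d. The shares were 30.4% for Serpina1a and 26.4% for Serpina1c. Serpina1a shared 807 of its 1286 windows with Serpina1c. The pseudogene Gm8893 and B430119L08Rik, an antisense gene whose exons overlap those of Serpina1c, also held some of the same windows. How the authors' counting treated reads that match several genes, and whether it used strand, is not given in the sources used here. Values of single copies are therefore uncertain, those of Serpina1a and Serpina1c the most, and Serpina6 is not touched by this. The copies are those of the reference assembly, and the number that the NMRI strain carries is not given in the sources used here.

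**Figure D1:**
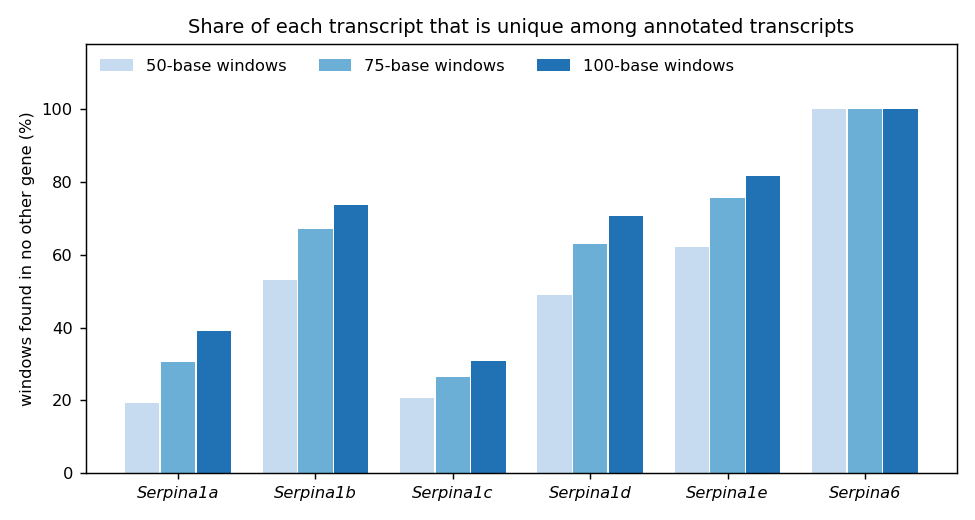
Share of the windows of each transcript that occur in no other annotated gene (percent, vertical axis), for windows of 50, 75 and 100 bases (bar shades) and the 6 genes (horizontal axis). Serpina6 stood at 100% for every window length, while Serpina1a and Serpina1c stayed below 40% at each.

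Promoter sequences of the 5 Serpina1 copies, from RefSeq on GRCm38.p6, were compared because these genes were low in the same pools. They covered 250 bases before and 50 bases after the annotated start of transcription, and their aligned identity ranged from 91.38% (Serpina1c and Serpina1d) to 97.6% (Serpina1b and Serpina1e). Pairs with Serpina1e aligned over 239 to 250 columns and the other pairs over 290 to 300. The identities therefore cover unlike stretches and do not rank the pairs. The longest run that all 5 copies shared without a mismatch was 59 bases long, and a letter pattern known for liver transcription factors is in capitals in it. TGTTTGC is a variant of the pattern bound by FOXA factors.
Serpina1b, chr12:103738196-103738254, minus strand: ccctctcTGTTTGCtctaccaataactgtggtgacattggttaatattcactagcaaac
This run began 65 bases before the annotated start in Serpina1b, 66 in Serpina1c, 60 in Serpina1a and 55 in Serpina1d. It began 117 bases before the start annotated for Serpina1e. On either strand, TGTTTGC was found in 5.07% of 32851 mouse promoters of the same length. The HNF4 core CAAAGT was present on the opposite strand of the Serpina1a, Serpina1b and Serpina1d promoters, and 14.3% of all promoters held it. It was not found in the windows of Serpina1c and Serpina1e. In Serpina1c the letters at the matching place differ. The Serpina1e window, shifted by its annotated start, does not reach that place, so presence there was not examined. The longer HNF4 pattern CAAAGTCCA, the FOXA pattern TGTTTAC, the C/EBP pattern TTGCGCAA and TATAAA were not found in any of the 5 windows, and 0.475%, 3.65%, 0.183% and 13.6% of all promoters held them. Patterns of other liver factors, such as HNF1, were not searched for. These matches are descriptions of letters, and binding was not measured here.

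Serpina6 was among the most abundant transcripts of the control pancreas and was several times lower in every mutant pool. It stood at 95.3, 129.4 and 135.8 CPM in mutant pools 1 to 3, against 819.7, 521.4 and 853.5 CPM in control pools 1 to 3. The groups did not overlap, and the lowest control pool was 3.84 times the highest mutant pool. Ranked by CPM among the 23337 rows, it was in place 2866, 1910 and 1800 in the mutant pools and in place 69, 164 and 62 in the control pools. The means were 120.2 ± 21.7 CPM in mutants and 731.5 ± 183 CPM in controls (SD, n = 3 each), a log2 fold change of -2.61 (SE 0.196), or 6.08 times lower in mutants. Of the 14687 genes with enough reads to be fitted, 14 had a log2 fold change at least this negative, Serpina6 included. Control pool 2 was the lowest of the controls.

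The alpha-1-antitrypsin copies were far less abundant, and all 5 were lower in each mutant pool than in any control pool. Summed over the copies, which removes the effect of reads exchanged among them, they gave 132, 214 and 120 reads in the mutant pools against 548, 512 and 779 reads in the control pools. This came to 8.30, 12.6 and 6.87 CPM in mutants, against 32.7, 31.2 and 45.5 CPM in controls. Mutant pool 2 was the highest of its group and control pool 3 the highest of the other. The means were 9.26 ± 2.99 CPM in mutants and 36.5 ± 7.87 CPM in controls (SD, n = 3 each), a log2 fold change of -1.98 (SE 0.219), or 3.94 times lower in mutants.

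Serpina1b, the copy with the most reads, was at 4.15, 7.36 and 4.35 CPM in the mutant pools, against 12.3, 13.3 and 15.5 CPM in the control pools. Its log2 fold change was -1.37 (SE 0.211), and control pools differed from one another less than mutant pools did, with coefficients of variation of 34.1% in mutants and 11.9% in controls. Serpina1a, the copy whose sequence is nearest to Serpina1c, had 1.01, 0.943 and 1.49 CPM in mutants, against 2.27, 3.53 and 2.16 CPM in controls. Its difference was the smallest of the 6 genes, at -1.20 (SE 0.29), and its groups were separated by a factor of 1.45.

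Serpina1c and Serpina1e showed the largest differences, and in both mutant pool 3 was the lowest of all pools. Serpina1c stood at 1.89, 1.83 and 0.458 CPM in the mutant pools, against 8.42, 7.19 and 13.9 CPM in the control pools. Serpina1e stood at 1.07, 2.06 and 0.229 CPM in the mutant pools, against 8.0, 5.79 and 12.4 CPM in the control pools. In mutant pool 3 these levels rest on 8 and 4 reads. The log2 fold changes were -2.83 (SE 0.415) for Serpina1c and -2.96 (SE 0.508) for Serpina1e, and that of Serpina1e ranged from -3.77 without mutant pool 2 to -2.47 with other pools left out in turn. For both copies control pool 3 was the highest and control pool 2 the lowest of the controls.

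Serpina1d, the copy inside the Serpina1b gene, was the least abundant in the control pools. It had 3, 7 and 6 reads in the mutant pools against 29, 23 and 26 reads in the control pools. Its levels were 0.189, 0.412 and 0.343 CPM in mutants and 1.73, 1.40 and 1.52 CPM in controls, a log2 fold change of -2.26 (SE 0.331). The control pools lay close together, and all mutant pools were below 0.5 CPM.

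**Figure D2:**
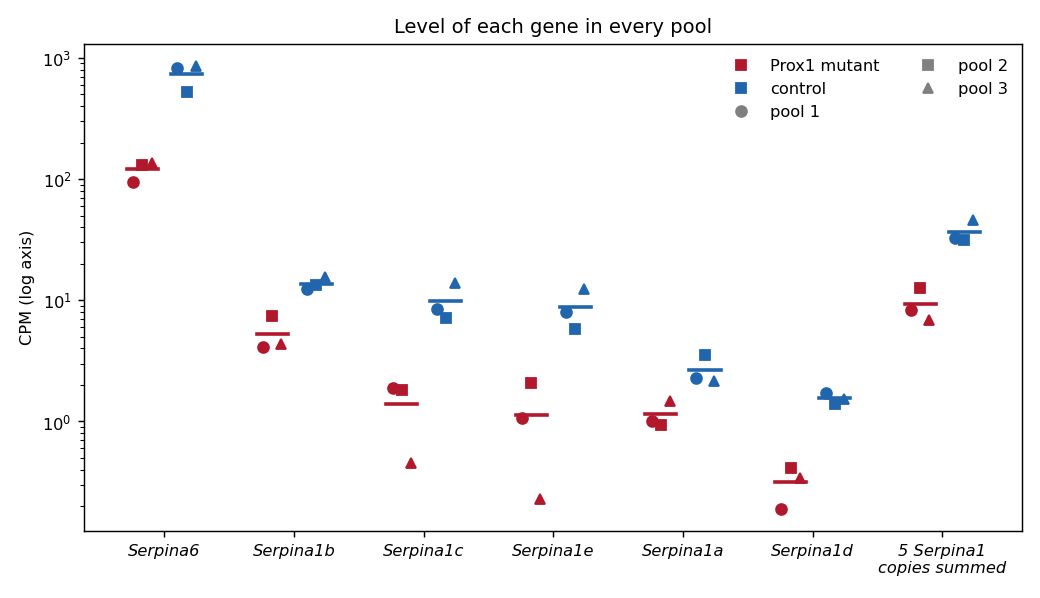
Level of each gene in every pool (CPM on a log axis), with red symbols for the 3 Prox1 mutant pools on the left of each gene and blue symbols for the 3 control pools on the right. Symbol shapes give the pool number and bars the group means, and for each gene and for the summed Serpina1 copies all mutant pools lie below all control pools.

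All 6 genes were lower in every mutant pool than in every control pool, a pattern that 13.4% of the 14687 fitted genes showed. Since the genes were chosen by this contrast, nothing is read from that count. The fit of all genes with edgeR called 7.95% of them at an adjusted p under 0.05, of which 4.28 percentage points were lower and 3.67 higher in mutants, and the median log2 fold change of all genes was 0.00. These shares are the background for the other genes described below. Not every gene passed the filter on low counts in the same way. Serpina6, Serpina1a and Serpina1b exceeded its level of 0.597 CPM in all 6 pools. Serpina1c and Serpina1e did so in 2 of 3 mutant pools, and Serpina1d in 0 of 3, so that Serpina1d was fitted through its control pools alone.

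Set against transcript length, Serpina6 stood well apart from the copies. It reached 74.9 ± 14 CPM per kb of transcript in mutants and 455.8 ± 114 CPM per kb in controls (SD, n = 3 each). Among the copies the order in the control pools was Serpina1b (9.82 ± 1.17 CPM per kb), Serpina1c (7.23 ± 2.63), Serpina1e (6.75 ± 2.62), Serpina1a (1.95 ± 0.561) and Serpina1d (1.11 ± 0.120). Serpina1b, Serpina1c and Serpina1e lay within 1 SD of a neighbour in this order, so their order is not resolved. Serpina1a and Serpina1d differed from each other by more than either SD. In the mutant pools Serpina1b was highest, at 3.79 ± 1.29 CPM per kb, followed by Serpina1c (1.02 ± 0.594), Serpina1e (0.865 ± 0.709) and Serpina1a (0.842 ± 0.219), which lay within 1 SD of each other. Serpina1d was lowest in mutants too, at 0.226 ± 0.0822 CPM per kb. The order depends on how shared reads were treated. If reads that match several genes were not counted, length is better taken as the number of unique windows. On that scale Serpina1c was the highest copy in controls, with 4.09 ± 2.38 CPM per unique kb in mutants and 28.9 ± 10.5 in controls. Serpina1b then had 5.97 ± 2.03 CPM per unique kb in mutants and 15.4 ± 1.84 in controls.

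The make-up of the Serpina1 reads also differed between the groups. Serpina1b held 50%, 58.4% and 63.3% of the Serpina1 reads in the mutant pools, against 37.6%, 42.6% and 34.0% in the control pools. These shares did not overlap, but the Wilson 95% intervals of mutant pool 1 (41.6% to 58.4%) and control pool 2 (38.4% to 46.9%) did. The shares of a pool add up to its whole, so those of different copies are not separate results. Serpina1c and Serpina1e together held 35.6%, 30.8% and 10% of the Serpina1 reads in the mutant pools, against 50.2%, 41.6% and 57.9% in the control pools. The share of this pair was thus smaller in every mutant pool, and it was smallest in mutant pool 3, at 12 of 120 reads (Wilson 95% interval 5.81% to 16.7%). The Wilson interval in mutant pool 1 was 28.0% to 44.1% and that in control pool 2 was 37.4% to 45.9%, so these pools overlap within counting error.

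Serpina1a held 12.1%, 7.48% and 21.7% of the Serpina1 reads in the mutant pools, against 6.93%, 11.3% and 4.75% in the control pools, with overlapping groups. Serpina1d held between 2.27% and 5.00% in mutants and between 3.34% and 5.29% in controls, also overlapping. In each group the pool with the lowest summed share of Serpina1c and Serpina1e, mutant pool 3 and control pool 2, had the highest share of Serpina1a. Since Serpina1a and Serpina1c share most of their windows, reads can move between these 2 genes, and the part of this in the shares was not tested.

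**Figure D3:**
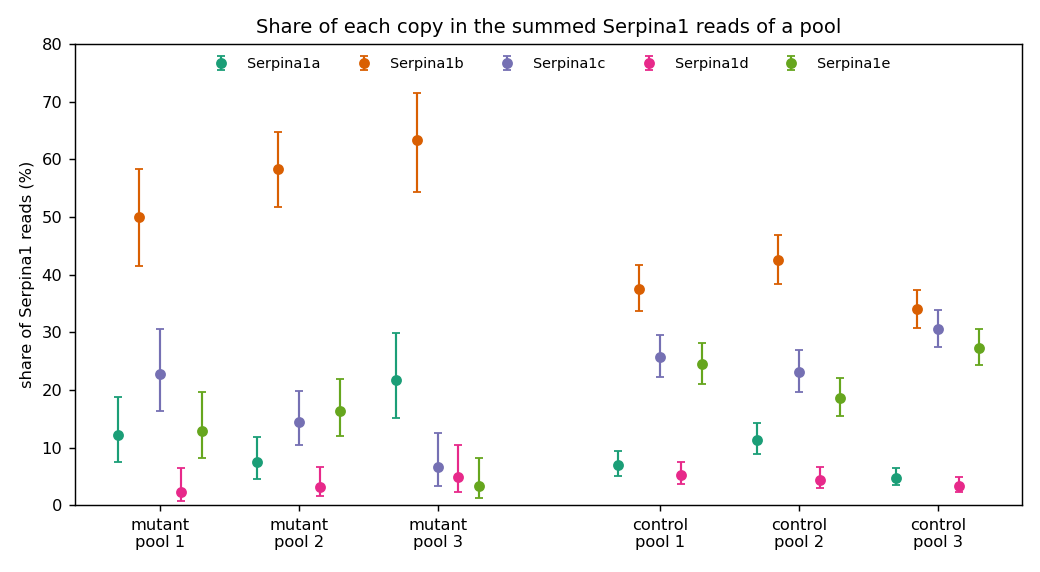
Share of each copy among the summed Serpina1 reads of a pool (percent, vertical axis), with the 3 mutant pools left of the 3 control pools. Points are shares, bars are Wilson 95% intervals for counting error only, and Serpina1b lies between 50% and 63.3% in mutants and between 34.0% and 42.6% in controls.

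Serpina6 and the summed Serpina1 copies did not keep a fixed ratio. There were 11.5, 10.3 and 19.8 Serpina6 reads per Serpina1 read in the mutant pools, against 25.1, 16.7 and 18.7 in the control pools. The groups overlapped because of mutant pool 3, which had the most Serpina6 and the fewest Serpina1 reads of the mutants.

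Genes around the cluster were not called. Of 14 protein-coding genes listed within 500 kb on either side, 13 were in the tables, 10 had enough reads to test, and edgeR called 0 of them in either direction, with a median log2 fold change of 0.01. The count was 0 with DESeq2 and with limma voom too, and 1 of the 10 had an unadjusted p under 0.05 in edgeR. Ppp4r4, which encodes a phosphatase subunit and lies next to the cluster, was at 13.8, 15.4 and 14.0 CPM in mutants against 16.18, 13.46 and 16.13 CPM in controls, a log2 fold change of -0.08 (SE 0.104). Ddx24, an RNA helicase gene, was at 0.01 (SE 0.045), and Dicer1, which encodes the nuclease that makes microRNAs, was at 0.02 (SE 0.045). Unc79, a sodium channel subunit gene, had the lowest value, at -0.40 (SE 0.126, edgeR adjusted p = 0.101). Its pools did not overlap, with 4.65 to 5.07 CPM in mutants and 6.27 to 6.37 CPM in controls.

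**Figure D4:**
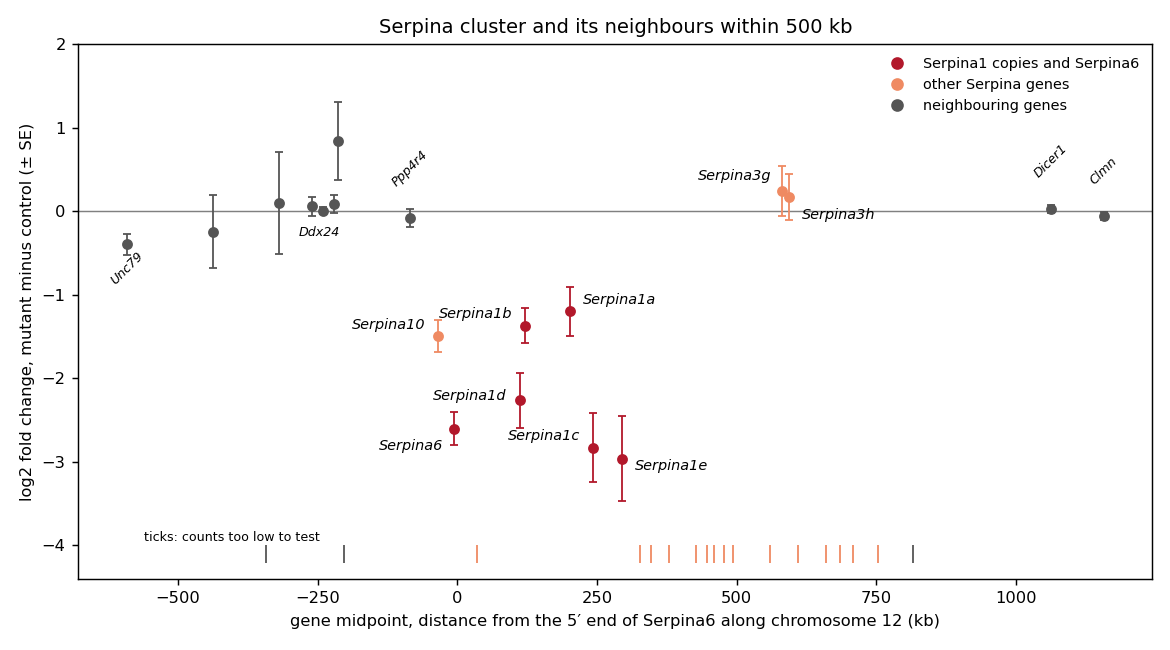
Log2 fold change of mutants over controls (vertical axis, with standard errors) against the distance of each gene from Serpina6 along chromosome 12 (kb), for the 6 genes (red), other Serpina genes (orange) and neighbouring protein-coding genes (grey). Ticks at the bottom mark genes with too few reads to test; the 6 genes and Serpina10 lie between -2.96 and -1.20, and the neighbours scatter around 0.

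Within the cluster, Serpina10 was lower and the Serpina3 genes were not called. Serpina10, which encodes the protein Z-dependent protease inhibitor of the clotting system, lies directly beside Serpina6. It was at 5.53, 7.72 and 7.21 CPM in mutants against 16.3, 16.6 and 24.9 CPM in controls, a log2 fold change of -1.49 (SE 0.194, edgeR adjusted p = 0.00257), and it remained called in all 15 alternative fits. The 19 further Serpina rows were taken by name and include Serpina7, which is not in the mapped cluster. Serpina3g at 0.24 (SE 0.294) and Serpina3h at 0.17 (SE 0.272) were the other 2 of them with enough reads, and neither was called. The rest had too few reads, and 6 of them were listed at 0 in every pool.

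Of the 38 serpin rows of other clades, 14 were tested, and edgeR called 3 lower and 1 higher. The lower genes encode plasma proteins or a secreted factor. Serpind1, which encodes heparin cofactor II, had 1, 2 and 2 reads in the mutant pools against 23, 30 and 26 reads in the control pools, a log2 fold change of -3.89 (SE 0.39, edgeR adjusted p = 0.000695). All its mutant pools were below the filter level of 0.597 CPM, so it was tested only because of its control pools and had to differ. Serpinf2, which encodes the plasmin inhibitor antiplasmin, was at 7.80, 11.3 and 9.67 CPM in mutants against 28.3, 27.0 and 36.6 CPM in controls, a log2 fold change of -1.67 (SE 0.156, edgeR adjusted p = 0.000584). Serpinf1, which encodes pigment epithelium-derived factor, was lower by a small amount, at -0.32 (SE 0.056, edgeR adjusted p = 0.00929).

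These 3 genes remained called in every alternative fit. Serpinh1, which encodes a collagen chaperone of the endoplasmic reticulum and has no inhibitor role, was higher at 0.20 (SE 0.045, edgeR adjusted p = 0.028). Its call was lost without mutant pool 1, 2 or 3, control pool 1 or control pool 3, with adjusted p between 0.0662 and 0.131. Serpine2, Serping1, Serpinb1a, Serpini1 and Serpini2 were among the 10 that were not called, and Serpinc1, the antithrombin gene, had at most 3 reads in any pool.

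**Figure D5:**
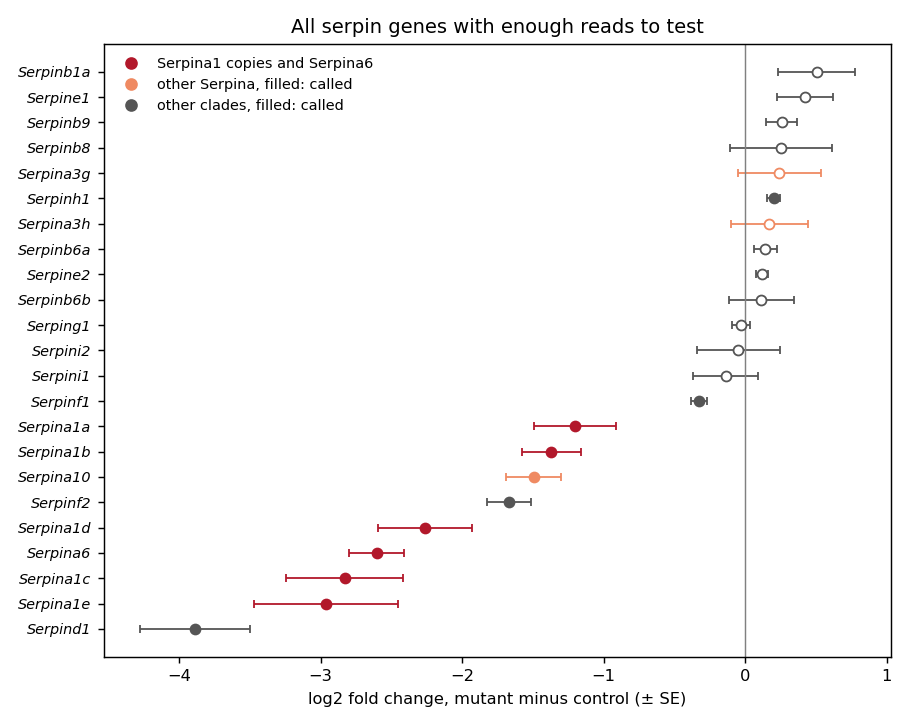
Log2 fold change of mutants over controls with standard errors (horizontal axis) for every serpin gene with enough reads, ordered by value, with the 6 genes in red, other Serpina genes in orange and other clades in grey. Among genes other than the 6, filled points were called by edgeR; Serpind1, Serpinf2, Serpinf1 and Serpina10 are the called genes on the negative side besides the 6, and Serpinh1 the called gene on the positive side.

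Liver-enriched transcription factors, several of them known to drive these genes in liver, were present in the pancreas pools, and several were modestly lower in mutants. Of 17 listed, all were tested, 5 were called lower, 2 higher and 10 not called, with a median log2 fold change of -0.19. Among all fitted genes 4.28% were called lower and 3.67% higher. The number of listed factors called lower was 1 to 5 with single pools left out, and 0 without both low-Xist pools. Cebpa, a C/EBP factor gene, was at 9.998, 10.19 and 8.18 CPM in mutants against 13.3, 14.6 and 15.9 CPM in controls, a log2 fold change of -0.62 (SE 0.121, edgeR adjusted p = 0.0151). It stayed called with any single pool left out. Hnf4a, a nuclear receptor gene of liver and gut, was at -0.44 (SE 0.086, edgeR adjusted p = 0.0148), and missed the threshold without mutant pool 1 (adjusted p = 0.0527) and without mutant pool 3 (0.0509). Foxa3, a forkhead factor gene, was at -0.52 (SE 0.111, edgeR adjusted p = 0.0236) and missed it without mutant pool 1 (0.0756), mutant pool 3 (0.0848), control pool 1 (0.0911) or control pool 3 (0.0721).

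Hnf4g had 2, 4 and 6 reads in the mutant pools against 19, 11 and 25 in the control pools. It was at -2.16 (SE 0.465, edgeR adjusted p = 0.0238) and missed the threshold without mutant pool 1 (0.0762), mutant pool 2 (0.0859), control pool 1 (0.0768) or control pool 3 (0.0803). It too passed the filter through its control pools alone, since all mutant pools were below 0.597 CPM. Foxa2, a forkhead factor gene of the foregut, was not called, at -0.21 (SE 0.0744). Nr1h4, the bile acid receptor gene, was higher at 1.68 (SE 0.227, edgeR adjusted p = 0.00301). Cebpd was higher at 0.71 (SE 0.174, edgeR adjusted p = 0.0398), which was lost without mutant pool 2 (0.134), mutant pool 3 (0.101), control pool 1 (0.135) or control pool 3 (0.114).

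Several protease genes, listed as targets of alpha-1-antitrypsin or as relatives of such targets, were higher in mutants. All 12 listed genes were tested, 7 were called higher and 1 lower, and 4 were not called, with a median log2 fold change of 2.23. Among all fitted genes 3.67% were called higher and 4.28% lower. The number called higher and the median rest in part on genes that passed the filter only through their mutant pools, named below. The neutrophil elastase gene Elane was at 2.89, 2.30 and 1.54 CPM in mutants against 0.239, 0.183 and 0.234 CPM in controls, a log2 fold change of 3.31 (SE 0.376, edgeR adjusted p = 0.00128). Prtn3, the proteinase gene of the same granules, was higher by 2.01 (SE 0.222), and Ctsg, the cathepsin G gene, had 58, 39 and 18 reads in mutants against 0, 2 and 0 reads in controls. In the control pools Elane, Ctsg and Ctrl were all below the filter level of 0.597 CPM, so these genes were tested only because of their mutant pools. Among pancreatic protease genes, Ctrl was higher by 5.89 (SE 0.466) and Prss2 by 2.45 (SE 0.431).

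Prss1 and Prss3, trypsinogen genes with close copies that may share reads, were higher as well, with log2 fold changes of 4.04 (SE 0.632) and 4.13 (SE 0.618). Control pool 3 stood apart in both, with 47 reads of Prss1 and 45 of Prss3, against 1 to 4 reads in the other control pools. Those other control pools were below the filter level of 0.597 CPM, so both genes too were tested only because of their mutant pools. Without control pool 3 the log2 fold changes were 6.33 for Prss1 and 7.06 for Prss3. Ctrb1, Ctrc, Cela1 and Cela2a were not called. Cela3b was lower at -1.29 (SE 0.318, edgeR adjusted p = 0.0415), a call lost without mutant pool 1, 2 or 3, control pool 1 or control pool 3, with adjusted p between 0.091 and 0.132.

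Genes of glucocorticoid handling and response, the side on which corticosteroid-binding globulin acts, were called about as often as all genes. Of 15 listed, 14 were tested, 1 was called higher and 13 were not called, a share near the 7.95% of all genes, with a median log2 fold change of 0.07. Nr3c1, the glucocorticoid receptor gene, was at 146.6, 130.1 and 129.5 CPM in mutants against 142.0, 117.6 and 128.3 CPM in controls, a log2 fold change of 0.07 (SE 0.075). The receptor targets Fkbp5 and Tsc22d3 were at 0.10 (SE 0.054) and 0.12 (SE 0.079). Hsd11b2, whose enzyme inactivates glucocorticoids, was at 0.63 (SE 0.182, edgeR adjusted p = 0.0745), with overlapping groups. Klf9, a receptor target, was called higher at 0.89 (SE 0.224, edgeR adjusted p = 0.0455), and the call was lost without mutant pool 1, 2 or 3, control pool 1 or control pool 3, with adjusted p between 0.068 and 0.157.

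Genes that fold, export or degrade secreted glycoproteins such as alpha-1-antitrypsin were likewise near the background. All 12 were tested, 1 was called higher and 11 were not called, beside 7.95% called among all genes, with a median log2 fold change of 0.06. Lman1, the cargo receptor that carries alpha-1-antitrypsin out of the endoplasmic reticulum, was at 0.02 (SE 0.061). Edem3, which acts in disposal of misfolded glycoproteins, was higher at 0.27 (SE 0.058, edgeR adjusted p = 0.0241), and missed the threshold without mutant pool 1 (0.0806), mutant pool 2 (0.0764) or control pool 1 (0.0738).

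Some markers of hepatocytes, the usual source of these proteins, were lower in mutants, and most were at a few CPM or less. The 14 listed markers summed to 214 to 246 CPM in mutants and 377 to 519 CPM in controls, mostly from Ttr, which islet cells also express, and from Afp and Trf. Alb, the albumin gene and the defining marker, was at 0.440, 0.589 and 0.229 CPM in mutants against 4.24, 4.45 and 2.69 CPM in controls, or 4 to 10 reads against 46 to 73 reads. Alb stood far below Serpina6 in every pool. Enough reads to test were found for 7 markers, of which Alb (-3.16, SE 0.349), Afp (-1.58, SE 0.154) and Ttr (-0.88, SE 0.131) were called lower by edgeR and 4 were not called. Alb was below the filter level of 0.597 CPM in all mutant pools and was tested only because of its control pools. Among the markers with too few reads to test, Apoc3 was at 0 reads in all mutant pools and at 1 to 3 reads in controls. Apoa2, Ahsg and Fga also had lower means in mutants. Apob and Hpx went the other way. Apob had 15, 10 and 11 reads in mutants against 8, 8 and 10 in controls, and Hpx 9, 15 and 8 against 8, 10 and 7. Apoh had 0 to 2 reads in any pool. The part of hepatocyte RNA in the Serpina differences was not tested.

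Several markers of endocrine cells were also lower in mutants. The 12 listed markers summed to 1380 to 1473 CPM in mutants and 1942 to 2592 CPM in controls. Of the 12, 8 were called lower by edgeR, beside 4.28% of all fitted genes, and Isl1, Fev, Chga and Chgb were not called. Neurog3, the switch gene of endocrine progenitors, was at 66.6, 68.5 and 62.0 CPM in mutants against 143.0, 112.4 and 162.8 CPM in controls. Control pool 2 was the lowest control for Serpina6, Serpina1c, Serpina1d, Serpina1e and the Serpina1 sum. It also had the lowest endocrine sum among controls, at 1942 CPM, and the lowest sum of acinar tip markers, at 2113 CPM. The sums of pancreas, trunk and duct, and mesenchyme markers were lowest in this control pool too. Its erythroid sum was the highest of the controls, at 2327 CPM. Hepatocyte and macrophage sums of this pool lay between those of the other controls. This pool was the highest control for Serpina1a. In the mutants the endocrine sum ran the other way. Mutant pool 3 had the highest Serpina6 and the lowest endocrine sum of its group, at 1380 CPM. Most of that sum came from Gcg and Chgb, and Chgb, which was not called, was at 337.2, 271.2 and 228.9 CPM in mutant pools 1 to 3. Single markers differed in this, since Iapp and Pcsk2 were highest in mutant pool 3 among mutants, while Neurog3, Neurod1 and Pax6 were lowest there. The acinar tip sums were 3362 to 4527 CPM in mutants and 2113 to 4413 CPM in controls, with 1 of 9 tested called lower.

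Trunk and duct markers summed to 1895 to 2137 CPM in mutants and 2167 to 2506 CPM in controls, with 1 higher and 3 lower of 9. Macrophage markers summed to 167 to 199 CPM in mutants and 147 to 178 CPM in controls, with 0 of 8 called by edgeR and 2 at an unadjusted p under 0.05. Mesenchyme markers summed to 7501 to 8521 CPM in mutants and 6668 to 6890 CPM in controls, with 1 of 6 called higher. Erythroid markers summed to 1625 to 2434 CPM in mutants and 1461 to 2327 CPM in controls, with 2 of 6 called higher. The part of these cell types in the Serpina differences was not tested.

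The genes whose levels over the 6 pools were most like those of Serpina6 are described here by the root mean square difference of log2 levels, each centred on its own mean. Among 13232 fitted genes with an average of at least 1 on the log2 CPM scale, the nearest was Iapp, the gene of the beta cell peptide amylin, at 0.248. It stood at 3.65, 3.83 and 5.78 CPM in mutants against 21.0, 17.7 and 26.2 CPM in controls. The next were the water channel gene Aqp4 at 0.276, the protease gene Tmprss6 at 0.327, the gastrin gene Gast at 0.376 and the photoreceptor cadherin gene Cdhr1 at 0.380. Of the Serpina1 copies, which were not held to that average, Serpina1d was nearest to Serpina6, at 0.350, and Serpina1e farthest, at 0.926. Both distances include low counts, with 3, 7 and 6 reads of Serpina1d in the mutant pools and 4 reads of Serpina1e in mutant pool 3.

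Nearest to the summed Serpina1 copies, among 13229 genes, were Notum at 0.251, which encodes a Wnt-inactivating enzyme, and the carboxylesterase gene Ces1d at 0.255. Serpinf2 followed at 0.263, the kinase gene Brsk2 at 0.270 and F10, the clotting factor X gene, at 0.274. Serpina6 was at 0.450 from the sum. All 10 of these genes separated the groups with mutants lower, as the query genes did, and likeness over 6 pools of 2 groups mostly records that separation.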

How the data were processed

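The deposited values are whole-number read counts per gene, made by the authors and not normalized. Per the submitters' processing notes, cutadapt 1.13, STAR, HTSeq 0.6.1p1, DESeq2 and build mm10 were used. Tool order, gene annotation, strand setting and handling of multiply mapped reads were not given in the sources used here. The labels name Trizol for RNA extraction and the design text a column kit, so this is unsettled. All 6 tables were fitted with edgeR 4.0.16 in R 4.3.3 (filterByExpr with minimum count 10, TMM, quasi-likelihood F test on genotype alone). P-values were adjusted by Benjamini-Hochberg over 14687 genes and calls made at 0.05. Standard errors were taken as coefficient size over root F. Log2 fold changes are mutant over control. Alternatives used other scalings and filters, DESeq2 1.42.0, limma 3.58.1, the replicate block and omission of pools. The fit was tested on simulated data. Intervals are Wilson 95% and cover counting error only. Positions and transcripts come from GENCODE M21 and promoters from RefSeq; 5 of 6 genes matched a promoter. Profiles used log2(CPM + 0.1). Named were the 6 genes, list members as examples, all serpin rows, the 5 nearest profiles and neighbours within 500 kb. The genes and lists were chosen with earlier results of these data known. Results for some listed genes are not reported here.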

Additional observations from a re-analysis of the deposited data

How the results depend on the processing

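In 15 alternative fits no log2 fold change turned its direction among the 6 genes, the Serpina1 sum and the called serpin, regulator, protease and nearest-profile genes; Hnf4g gave no value in 1 of them. The summed Serpina1 copies ranged from -2.27 to -1.72 and Serpina6 from -2.80 to -2.34. The number of genes called in all was 1138 with the replicate block and 665 without both low-Xist pools (mutant 1 and control 3), of which 315 were higher and 350 lower. With single pools left out it was 629 to 1421, with 282 to 696 higher and 343 to 725 lower, and those fits have fewer samples. The other serpin gene called higher, Serpinh1, gave a count of 0 with the replicate block, 0 without both low-Xist pools and 0 to 1 with single pools left out. Without both low-Xist pools Cebpa was also not called (adjusted p = 0.0587). Over all alternatives, regulators called lower numbered 0 to 5 and higher 1 to 3, proteases higher 7 to 8 and lower 0 to 1, glucocorticoid genes higher 0 to 2 and glycoprotein-handling genes higher 0 to 3. Correlations of pool deviations were 0.138, 0.101 and -0.0497 between pools of equal number, and -0.234 to 0.159 between pools of unequal number. The main fit did not pair pools, and these values cannot settle whether pools of equal number shared a litter or a day. Depth limits Serpina1d, at 3 to 7 reads per mutant pool, and Serpina1c and Serpina1e in mutant pool 3. Pool number limits every comparison, and read assignment among the copies limits single-copy values.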
